A study of Mus musculus with 8 samples.

Results

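The genes described here encode the enzymes, regulators and transporters of sterol and fatty acid synthesis, measured in mouse embryonic stem cells (ESCs) after knockdown (KD) of Tip60, Hdac6 or both. The members are all non-control probes whose gene name in the array files is one of 35 chosen names. All 35 were on the arrays, with 52 of the 39429 probes, and all 35 passed the filter on dim probes, as did 46 of their probes, among 18116 genes tested.

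Each KD used E14 ESCs, an established line, grown without feeder cells on gelatin with LIF and 10% serum and harvested 72 hours after lentiviral infection. The control KD cells received a hairpin against GFP (EGFP), the Tip60 KD cells a hairpin against Tip60, the Hdac6 KD cells a hairpin against Hdac6, and the double KD cells hairpins against both. Every group therefore carried lentivirus, and a single hairpin, kept because it was the most effective of those screened, stood for each gene. Each group had 2 arrays, lettered A and B, which the design text calls biological replicates. Whether they came from separate infections was not stated, so p-values measure the spread between these arrays. Kat5 is the gene of Tip60, a lysine acetyltransferase, and Hdac6 is a class II deacetylase.

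Cells build cholesterol from acetyl-CoA through mevalonate, isoprenoid diphosphates, squalene and lanosterol, and they build fatty acids from citrate-derived acetyl-CoA through malonyl-CoA. Transcription of most enzymes of both routes is driven by the SREBP factors, which Scap escorts out of the endoplasmic reticulum when sterols are low and which the Insig proteins hold back when sterols are high. Sterol surplus is met in the opposite way, by the liver X receptors, which drive the cholesterol exporter Abca1.

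Levels are given as log2 of the processed signal relative to the 75th percentile of the array, and a gene was called where limma's adjusted p was under 0.1. Kat5 fell to 39.2% of control in Tip60 KD and 40.4% in double KD, and Hdac6 fell to 17.8% in Hdac6 KD, 27.3% in double KD and 73.9% in Tip60 KD. All A arrays were on one slide and all B arrays on the other, and each group held the same position on both, so position and group cannot be told apart. Within each slide the background subtracted was highest on the control array, with a median of 61.0 on the A slide against 37.2 to 39.4 on its other arrays, and 114 on the B slide against 41.4 to 89.0. This bears on dim probes, so values with an equal background are given beside them below. The 10 ESC markers summed to 335 to 336 times the 75th percentile in control KD and 326 to 358 in the KDs, with 4, 2 and 3 called higher in Tip60, Hdac6 and double KD and 1 called lower, in double KD. Of 7 endoderm markers 2 were tested, Sox17 was at the floor on both control arrays, and none was called. Of 7 fibroblast markers 4 were tested, and their sum was 1.84 to 2.08 in control KD, 2.50 to 2.96 in Tip60 KD, 1.94 to 2.02 in Hdac6 KD and 2.64 to 2.91 in double KD, with 2 called higher in each of Tip60 and double KD and Col3a1 and Lum at the floor on both control arrays. The part of these differences in the results was not tested.

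Of the 35 members, 29 were called in at least 1 KD. The share of all genes called in at least 1 KD was not counted, so 29 has no background beside it. In Tip60 KD 23 were called, 12 higher and 11 lower, against 39.7% of all genes tested (19.7% higher and 20.0% lower). In Hdac6 KD 18 were called, 7 higher and 11 lower, against 28.9% of all genes (14.0% higher and 14.9% lower). In double KD 23 were called, 11 higher and 12 lower, against 32.8% of all genes (15.9% higher and 16.9% lower). The median change of the members was -0.05, -0.08 and -0.10 in Tip60, Hdac6 and double KD, beside 0.06, 0.03 and 0.05 over all genes, so the members as a list were spread on both sides of zero. With the replicate letter (the slide) as a block, 29, 27 and 26 members were called, against 60.8%, 52.9% and 55.4% of all genes. Without an array in turn the counts were 17 to 21, 10 to 18 and 14 to 22. The shares of all genes called with an array left out were not counted, here or below. In Hdac6 KD the count of 18 dropped to 10 when Hdac6 KD array B was omitted, to 11 on omitting its array A or control array A, and to 12 on omitting control array B. In double KD the count of 23 dropped to 14 on omitting control array B and to 15 on omitting array A of that group. Of the 64 calls, 34 held under all of the 19 alternative analyses of the same arrays that gave a value. The 3 comparisons share the control arrays.

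The split ran inside the pathways. Called lower in all 3 KDs were 7 members: Hmgcs1, Pmvk and Fdps of the mevalonate route, Sc4mol of the late sterol route, the transcription factor gene Srebf2, the desaturase gene Scd1 and the sterol carrier gene Stard4. Called higher in all 3 were 5: Acly and Fasn of fatty acid synthesis, the desaturase genes Scd2 and Fads2, and Abca1. The shares of all genes called lower or higher in all 3 were not counted, and the 3 comparisons share the control arrays. Mvk, Sqle, Cyp51, Tm7sf2, Hsd17b7 and Acaca were called in none on the probe that represents them. With the slide as a block, Mvk was called higher in all 3, Sqle lower in Tip60 and Hdac6 KD, and in Hdac6 KD also Acaca higher and Hsd17b7 lower.

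**Figure D1:**
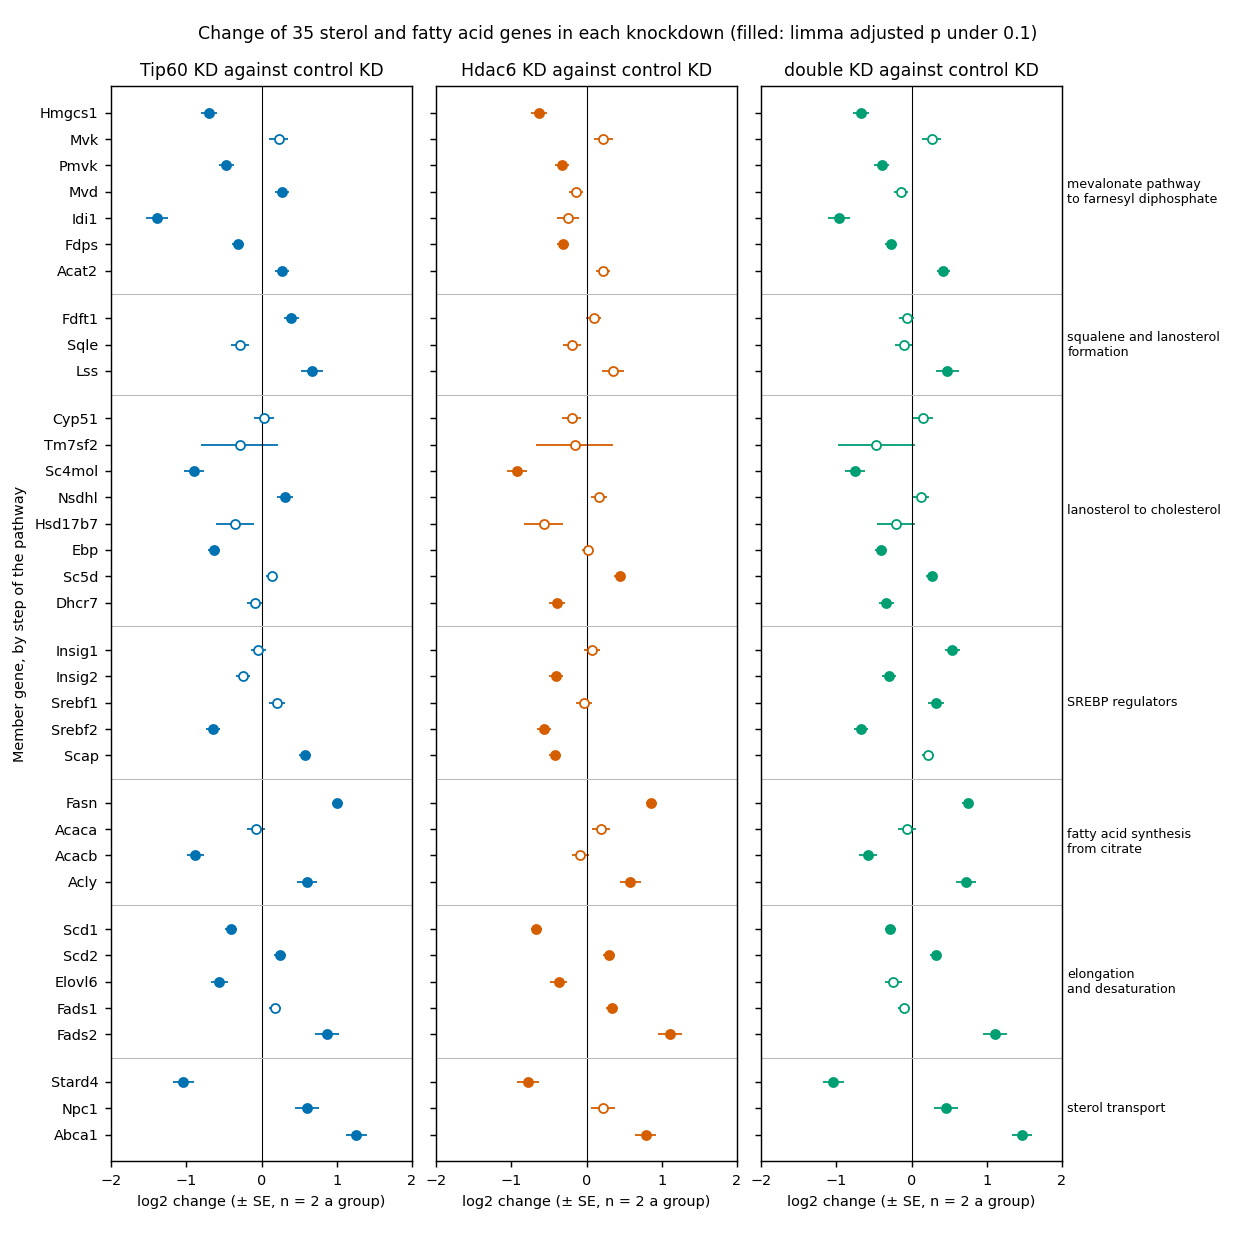
Log2 change of the 35 members against control KD in Tip60, Hdac6 and double KD (x axis, ± SE, n = 2 arrays a group), in rows by step of the pathway. Filled points were called (limma adjusted p under 0.1). Abca1 lies to the right at 1.26, 0.79 and 1.47 and Idi1 to the left at -1.39, -0.24 and -0.96. The steps of sterol synthesis hold points on both sides of zero, though in squalene and lanosterol formation none was called lower.

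The stretches of promoter below belong to 4 members called lower and 3 called higher. Of the 4, Hmgcs1, Sc4mol and Srebf2 were lower in all 3 KDs and Idi1 in Tip60 and double KD, and Acly, Fasn and Abca1 were higher in all 3. They are the 170 bases before the start site, 5′ to 3′ on the gene's strand, from RefSeq on build GRCm38.p6. Capitals mark the motifs searched on both strands: the sterol response core TCACNCCAC (found here only in Hmgcs1), the E-box CACGTG (here only in Abca1) and the CCAAT box CCAAT, which reads ATTGG on the other strand.
Hmgcs1, chr13:119690181-119690350, + strand: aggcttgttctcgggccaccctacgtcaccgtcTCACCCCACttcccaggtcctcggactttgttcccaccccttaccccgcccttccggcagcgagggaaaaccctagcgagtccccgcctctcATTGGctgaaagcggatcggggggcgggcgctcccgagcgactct
Idi1, chr13:8885436-8885605, + strand: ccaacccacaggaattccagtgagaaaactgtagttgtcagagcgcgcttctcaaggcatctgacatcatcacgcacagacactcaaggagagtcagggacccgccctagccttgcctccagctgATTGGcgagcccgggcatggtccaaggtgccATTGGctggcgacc
Sc4mol (Msmo1), chr8:64733579-64733748, - strand: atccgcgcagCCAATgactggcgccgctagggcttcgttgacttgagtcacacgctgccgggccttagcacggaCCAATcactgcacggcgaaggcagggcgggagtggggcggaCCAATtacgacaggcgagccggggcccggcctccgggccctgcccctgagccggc
Srebf2, chr15:82147099-82147268, + strand: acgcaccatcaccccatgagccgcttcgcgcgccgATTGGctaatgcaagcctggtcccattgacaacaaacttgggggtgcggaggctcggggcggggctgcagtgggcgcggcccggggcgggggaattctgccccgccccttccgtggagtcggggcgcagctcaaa
Acly, chr11:100528001-100528170, - strand: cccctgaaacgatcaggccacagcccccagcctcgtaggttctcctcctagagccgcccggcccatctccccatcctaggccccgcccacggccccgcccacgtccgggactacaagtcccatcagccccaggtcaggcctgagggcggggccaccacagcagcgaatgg
Fasn, chr11:120824548-120824717, - strand: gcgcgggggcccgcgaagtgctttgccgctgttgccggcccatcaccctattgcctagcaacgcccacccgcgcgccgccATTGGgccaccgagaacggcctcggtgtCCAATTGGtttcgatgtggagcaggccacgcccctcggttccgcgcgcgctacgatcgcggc
Abca1, chr4:53159896-53160065, - strand: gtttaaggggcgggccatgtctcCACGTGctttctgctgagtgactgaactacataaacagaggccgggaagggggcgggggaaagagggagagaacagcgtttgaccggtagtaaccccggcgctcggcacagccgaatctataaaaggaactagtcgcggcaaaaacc
In Fasn, CCAAT boxes on opposite strands overlap by 2 bases, and no other motifs overlap. Over the full windows, from 250 bases before to 50 after the start site, 27 of the 35 members had an entry. The CCAAT box was in 21 of these 27 genes, against 41.1% of the 27025 genes in the table and 37.4% of its 32851 promoters. The E-box was in 6 of the 27 genes (Abca1, Dhcr7, Hsd17b7, Insig1, Sc5d and Scap), against 8.09% of genes and 7.15% of promoters, and the sterol response core was in 1, against 1.44% of genes and 1.24% of promoters. These exact letter matches are a description, without a test, and sites that differ from the motif by a base were not counted. CCAAT boxes stood in promoters of members with higher and with lower signal alike, such as Fasn and Sc4mol.

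The mevalonate route held 7 members, from the thiolase gene Acat2 to the farnesyl diphosphate synthase gene Fdps. In Tip60 KD 4 were lower and 2 higher, in Hdac6 KD 3 were lower and none higher, and in double KD 4 were lower and 1 higher, with medians of -0.32, -0.24 and -0.27. Hmgcs1, which makes HMG-CoA, was 4.11 and 4.14 on control arrays A and B, 3.30 and 3.54 after Tip60 KD, 3.44 and 3.54 after Hdac6 KD and 3.39 and 3.51 after double KD. All 6 KD arrays lay below both control arrays, and the level was 61.4%, 64.4% and 62.6% of control. The log2 changes were -0.70, -0.64 and -0.68 (SE 0.11), with limma adjusted p of 0.00508, 0.0123 and 0.00848. With the authors' series matrix values the adjusted p in Hdac6 and double KD was 0.118 and 0.132.

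Idi1, the isomerase that interconverts the C5 isoprenoid units, fell in Tip60 KD and double KD. Its levels were 3.26 and 3.08 in control KD, against 1.90 and 1.66 after Tip60 KD, 3.00 and 2.85 after Hdac6 KD and 2.35 and 2.06 after double KD. Both Hdac6 KD arrays lay just under the control arrays, while the Tip60 KD and double KD arrays lay far below. The log2 change was -1.39 (SE 0.14, adjusted p = 0.00184) in Tip60 KD, or 38.2% of control, and -0.96 (adjusted p = 0.00761), or 51.3%, in double KD. In Hdac6 KD it was -0.24 (adjusted p = 0.309, or 0.0222 with the slide as a block). The probe for Idi1 lies at chr13:8891524-8891583 and that for Ebp, described below, at chrX:7762463-7762522 (mm9, the build of the array files).

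The other members of this route changed less. Pmvk, phosphomevalonate kinase, changed by -0.47, -0.33 and -0.40 in Tip60, Hdac6 and double KD, and Fdps by -0.32, -0.31 and -0.27, each called lower in all 3. The Fdps calls were lost under 4, 7 and 10 of 19 alternatives, with control array A, among others, left out in each. With the series matrix its changes were -0.13, -0.096 and 0.023, not called. The Pmvk calls in Hdac6 and double KD were lost under 6 and 4, both without either control array. Against these, Acat2 was called higher in Tip60 KD (0.27) and double KD (0.42), and the decarboxylase gene Mvd was called higher in Tip60 KD alone (0.27, beside -0.14 in each of Hdac6 and double KD). The Tip60 KD calls of Acat2 (adjusted p = 0.0759) and Mvd (adjusted p = 0.0822) were each lost under 11 of 19 alternatives, among them leaving out either control array. The call of Acat2 in double KD was lost without control array B alone. Mvk, mevalonate kinase, was 0.23, 0.22 and 0.26, not called on its brightest probe except with the slide as a block (adjusted p = 0.0513, 0.0652 and 0.0370).

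Squalene and lanosterol formation held 3 members, none of them called lower in any KD without the block. Lss, which closes squalene epoxide into lanosterol, was -1.21 and -1.48 in control KD, against -0.59 and -0.77 after Tip60 KD, -1.0 and -0.99 after Hdac6 KD and -0.71 and -1.03 after double KD. All 6 KD arrays lay above both control arrays. The change was 0.67 (SE 0.15, adjusted p = 0.0196) in Tip60 KD and 0.47 (adjusted p = 0.0703) in double KD. In Hdac6 KD it was 0.35 (adjusted p = 0.162, or 0.0283 with the slide as a block). With an equal background the changes in Tip60 and double KD were 0.62 (adjusted p = 0.0230) and 0.39 (adjusted p = 0.108), the latter not called. In all, the call in double KD was lost under 10 of 19 alternatives, including the fits without control array B, double KD array A or either Hdac6 KD array (adjusted p up to 0.296). Fdft1, squalene synthase, was called higher in Tip60 KD (0.39) and was 0.09 and -0.07 in Hdac6 and double KD, the call being lost without control array A or Tip60 KD array A. Sqle, squalene epoxidase, was -0.29, -0.19 and -0.10, not called except with the slide as a block in Tip60 KD (adjusted p = 0.0139) and Hdac6 KD (adjusted p = 0.0636).

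From lanosterol to cholesterol there were 8 members, with 1, 1 and 1 called higher and 2, 2 and 3 called lower in Tip60, Hdac6 and double KD. Sc4mol (now Msmo1), the C4-methylsterol oxidase, was 2.90 and 2.76 in control KD, against 2.06 and 1.81 after Tip60 KD, 1.96 and 1.84 after Hdac6 KD and 2.20 and 1.97 after double KD. The groups did not overlap with control in any KD, and its level was 53.7%, 52.5% and 59.5% of control. The changes were -0.90, -0.93 and -0.75 (SE 0.13), with adjusted p of 0.00482, 0.00808 and 0.0123.

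Ebp, the sterol isomerase, was singled out after its values were seen. It was 1.85 and 1.74 in control KD, against 1.19 and 1.13 after Tip60 KD, 1.81 and 1.80 after Hdac6 KD and 1.42 and 1.35 after double KD. The Hdac6 KD arrays lay between the control arrays, and the arrays of the other KDs below both. The changes were -0.63 (SE 0.08, adjusted p = 0.00286) in Tip60 KD, 0.01 (adjusted p = 0.954) in Hdac6 KD and -0.40 (adjusted p = 0.0164) in double KD. Sc5d, the C5-desaturase, was called higher in Hdac6 KD (0.44) and double KD (0.27). Dhcr7, the last reductase of one branch, was called lower in the same KDs (-0.39 and -0.34). The call of Sc5d in double KD was lost without either control array or double KD array B, and that of Dhcr7 in Hdac6 KD without control array A or Hdac6 KD array B. Nsdhl, which removes the C4 carboxyl group, was called higher in Tip60 KD (0.31). The calls of Dhcr7 in double KD and Nsdhl were each lost under 9 of 19 alternatives, leaving out Tip60 KD array A or B or double KD array A or B among them. Cyp51, Hsd17b7 and Tm7sf2 were not called without the block, with changes between -0.57 and 0.15, and Hsd17b7 and Tm7sf2 were each at the floor of -2.71 on 1 array.

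Among the 5 regulators, Srebf2, which encodes the SREBP that mainly drives sterol synthesis, was lower in all 3 KDs. Its levels were 1.96 and 1.78 in control KD, against 1.24 and 1.22 after Tip60 KD, 1.36 and 1.26 after Hdac6 KD and 1.24 and 1.15 after double KD. All KD arrays lay below both control arrays. The changes were -0.65, -0.56 and -0.68 (SE 0.09), with adjusted p of 0.00459, 0.0123 and 0.00625, and the level was 63.9%, 67.6% and 62.6% of control. Srebf1, which encodes the SREBP forms better known for fatty acid synthesis, was 0.21, -0.03 and 0.32, called higher in double KD alone (adjusted p = 0.0818). It was dim, and with an equal background its change in double KD was -0.003 (adjusted p = 1.0).

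Scap, Insig1 and Insig2 control where the SREBPs reside, and each had its own pattern. Scap, singled out after its values were seen, was 1.08 and 1.09 in control KD, against 1.70 and 1.62 after Tip60 KD, 0.68 and 0.64 after Hdac6 KD and 1.36 and 1.24 after double KD. It lay above control in Tip60 KD and below it in Hdac6 KD on both arrays, and was the only member called in opposite directions in the single KDs. The changes were 0.58 (SE 0.08, adjusted p = 0.00393) and -0.42 (adjusted p = 0.0173). In double KD the change was 0.22 (adjusted p = 0.104, or 0.0270 with the slide as a block). Insig1, also singled out, was -0.89 and -0.86 in control KD, against -0.81 and -1.03 after Tip60 KD, -0.75 and -0.86 after Hdac6 KD and -0.29 and -0.38 after double KD. Only the double KD arrays stood apart (0.54, SE 0.10, adjusted p = 0.0148). The changes in the single KDs were -0.05 and 0.07. Insig2 was -0.24, -0.41 and -0.30, called lower in Hdac6 and double KD. These calls were lost under 5 and 12 of 19 alternatives, both without any one control or Hdac6 KD array. They rest on the brightest probe, as the other Insig2 probe gave 0.32, -0.14 and -0.11 and was not called.

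**Figure D2:**
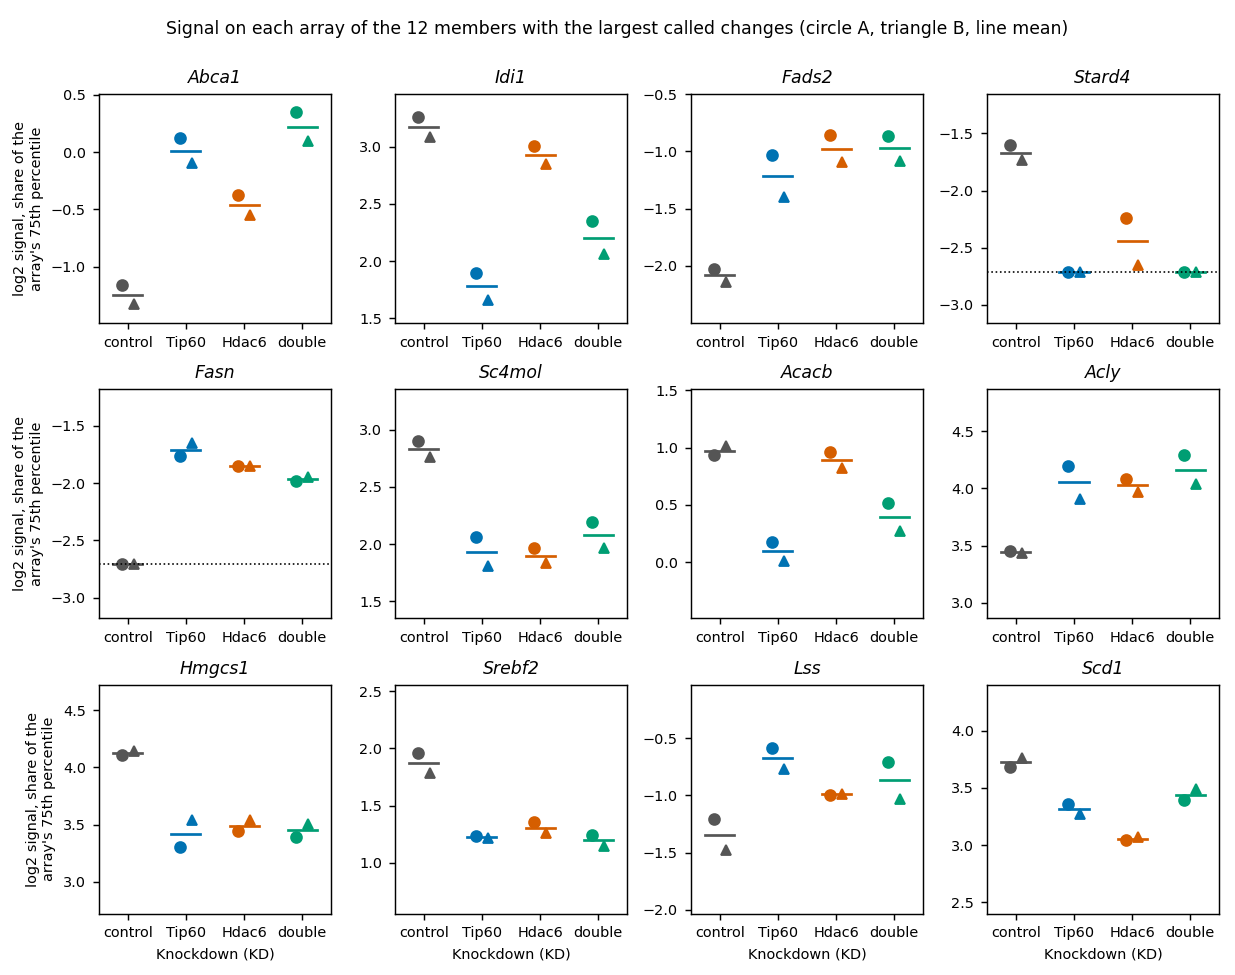
Signal on each array (y axis, log2 of the share of the array's 75th percentile, each panel spanning 2 units) of the 12 members with the largest called changes, for the control and the Tip60, Hdac6 and double KD. Circles are A arrays, triangles B arrays, lines group means, and the dotted line is the floor of -2.71, where Fasn lies in control KD and Stard4 in Tip60 KD and double KD.

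Fatty acid synthesis from citrate held 4 members. Acly, which splits citrate into acetyl-CoA and oxaloacetate, was 3.45 and 3.44 in control KD, against 4.19 and 3.91 after Tip60 KD, 4.09 and 3.97 after Hdac6 KD and 4.29 and 4.03 after double KD. All KD arrays lay above both control arrays. The changes were 0.61, 0.58 and 0.72 (SE 0.13), with adjusted p of 0.0189, 0.0317 and 0.0148. The call in Hdac6 KD was lost without either control array or either Hdac6 KD array, with adjusted p up to 0.137.

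Fasn, fatty acid synthase, was dim on its probe. Both control arrays were at the floor of -2.71, and the levels were -1.76 and -1.65 after Tip60 KD, -1.85 and -1.85 after Hdac6 KD and -1.98 and -1.95 after double KD. All KD arrays lay above control. With each array's own background the signal was at least 2.0-fold, at least 1.81-fold and at least 1.68-fold higher than in control KD (adjusted p = 0.000875, 0.00259 and 0.00284). Both control values are the floor itself, so the spread between control arrays was not measured and these adjusted p-values are likely too low. The probe passed the filter on dim probes through the KD arrays alone. With an equal background the changes were 0.82, 0.64 and 0.46 on the log2 scale, with adjusted p of 0.00884, 0.0287 and 0.0666.

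Acaca and Acacb encode the carboxylases that make malonyl-CoA, in the cytosol and at the mitochondrion. Acacb was 0.93 and 1.01 in control KD, against 0.18 and 0.01 after Tip60 KD, 0.96 and 0.82 after Hdac6 KD and 0.52 and 0.28 after double KD. The Hdac6 KD arrays overlapped with control, and the others lay below. The changes were -0.88 (SE 0.12, adjusted p = 0.00371) in Tip60 KD, -0.08 (adjusted p = 0.705) in Hdac6 KD and -0.58 (adjusted p = 0.0198) in double KD. Acaca was -0.07, 0.19 and -0.06 on its brightest probe, not called except in Hdac6 KD with the slide as a block (adjusted p = 0.0342).

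The 5 genes of elongation and desaturation changed in both directions. Scd1 and Scd2 encode stearoyl-CoA desaturases and lie near each other on mouse chromosome 19. Scd1 was 3.69 and 3.76 in control KD, against 3.35 and 3.27 after Tip60 KD, 3.04 and 3.07 after Hdac6 KD and 3.40 and 3.49 after double KD. It lay below control on all KD arrays and lowest in Hdac6 KD, with changes of -0.41, -0.67 and -0.28 (SE 0.08) and adjusted p of 0.0115, 0.00491 and 0.0495. The call in double KD was lost under 8 of 19 alternatives, among them leaving out either control array or double KD array A (adjusted p up to 0.384). Scd2 was called higher in all 3, by 0.25, 0.30 and 0.32, with each call lost without control array B, among others. Elovl6, which elongates palmitate to stearate, was called lower in Tip60 KD (-0.57) and Hdac6 KD (-0.37) and was -0.25 in double KD (adjusted p = 0.0497 with the slide as a block). The call in Hdac6 KD was lost under 9 of 19 alternatives, among them leaving out any of the control or Hdac6 KD arrays. In Hdac6 KD the change was -0.15 with the series matrix (adjusted p = 0.462) and -0.15 with an equal background (adjusted p = 0.22), and in double KD 0.013 and -0.0047.

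Fads2, the delta-6 desaturase, was -2.03 and -2.14 in control KD, against -1.03 and -1.40 after Tip60 KD, -0.86 and -1.09 after Hdac6 KD and -0.86 and -1.09 after double KD on its brightest probe. All KD arrays lay above control, with changes of 0.87, 1.11 and 1.11 (SE 0.16) and adjusted p of 0.0104, 0.00873 and 0.00705. With an equal background the changes were 0.75, 0.93 and 0.89, and the series matrix gave 0.58 in Tip60 KD, no longer called (adjusted p = 0.101). The other Fads2 probe gave less, as described below. Fads1, the delta-5 desaturase, was called higher in Hdac6 KD (0.34) and was 0.17 and -0.10 in Tip60 and double KD, the call being lost without any one control or Hdac6 KD array.

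Of the 3 genes of sterol transport, Abca1 was called higher and Stard4 lower in every KD. Abca1, which exports cholesterol to lipoproteins, was -1.16 and -1.33 in control KD, against 0.12 and -0.10 after Tip60 KD, -0.37 and -0.55 after Hdac6 KD and 0.35 and 0.10 after double KD. No group overlapped with control, and the order of the means was control, Hdac6, Tip60 and double KD. It rose 2.39-fold, 1.72-fold and 2.76-fold, that is by 1.26, 0.79 and 1.47 on the log2 scale (SE 0.14), with adjusted p of 0.00206, 0.0143 and 0.00234. With an equal background the changes were 1.25, 0.82 and 1.46. Its probe lies at chr4:53043944-53044003 (mm9).

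Stard4, a carrier of sterol between membranes, was -1.60 and -1.74 in control KD, -2.24 and -2.65 in Hdac6 KD, and at the floor of -2.71 on all 4 arrays of Tip60 and double KD. With each array's own background it was at least 2.06-fold lower in Tip60 KD (adjusted p = 0.00401) and by the same bound in double KD (adjusted p = 0.00625). Values at the floor carry no spread between arrays, so these adjusted p-values are likely too low. With an equal background the log2 changes were smaller, at -0.68, -0.54 and -0.68 in Tip60, Hdac6 and double KD, and all were called. In Hdac6 KD the change was -0.78 (SE 0.14, adjusted p = 0.0171, or 0.302 with the series matrix values). Npc1, which moves cholesterol out of lysosomes, was called higher in Tip60 KD (0.60) and double KD (0.46) and was 0.22 in Hdac6 KD (adjusted p = 0.0437 with the slide as a block). With an equal background it was 0.45, 0.08 and 0.28, no longer called in double KD (adjusted p = 0.185). The call in Tip60 KD was lost under 6 of 19 alternatives, among them the series matrix (0.39, adjusted p = 0.301) and the fits without control array B or Tip60 KD array A. That in double KD was lost under 13, including the fits without any one control, Hdac6 KD or double KD array.

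The comparison of Tip60 KD with Hdac6 KD uses no control array and asks where the single KDs differed. It called 8 members, 4 higher and 4 lower in Tip60 KD, against 23.5% of all genes (12.2% higher and 11.3% lower). With the slide as a block 17 were called, against 41.5% of all genes. The widest difference was in Idi1, lower in Tip60 KD by -1.15 on the log2 scale (SE 0.14, adjusted p = 0.00735). Acacb (-0.80), Ebp (-0.64) and Sc5d (-0.31) were also lower in Tip60 KD. Scap was higher in Tip60 KD by 1.00 (SE 0.08, adjusted p = 0.00305), as were Abca1 (0.47), Mvd (0.40) and Scd1 (0.26). Hmgcs1, Sc4mol, Srebf2, Fasn and Acly, each called in both single KDs, differed by -0.07, 0.03, -0.08, 0.15 and 0.02 and were not called. Without Tip60 KD array A, Tip60 KD array B or Hdac6 KD array A, 4 members were called, and 5 without Hdac6 KD array B.

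**Figure D3:**
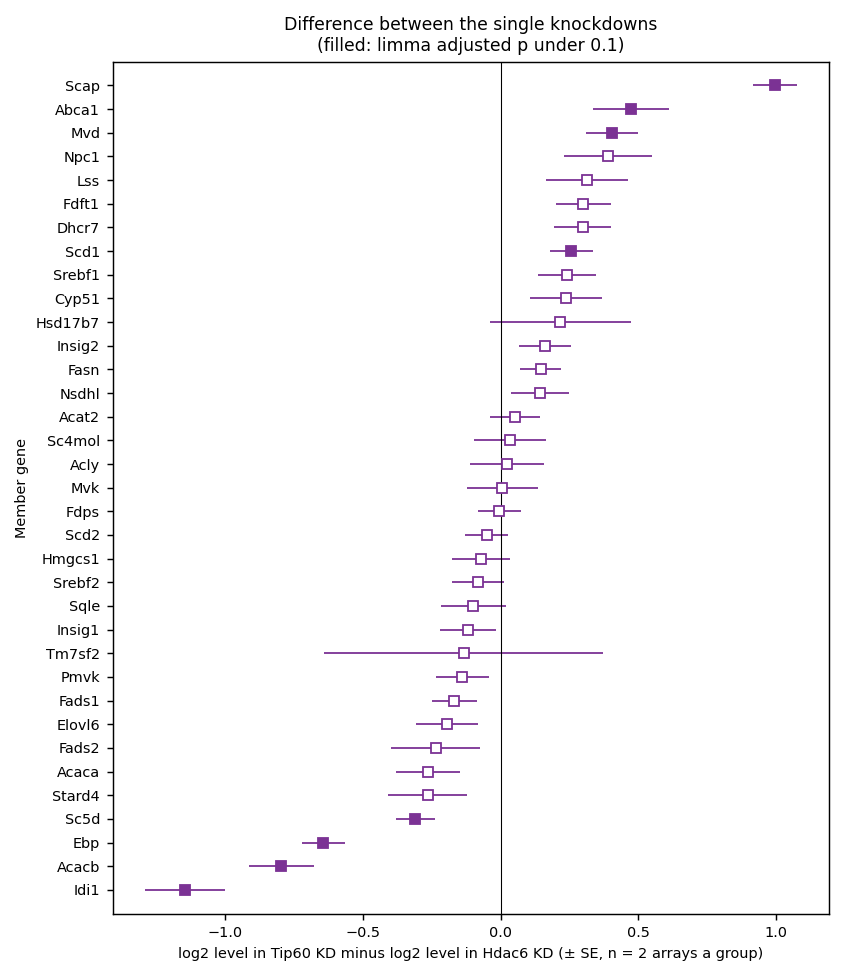
Level in Tip60 KD minus level in Hdac6 KD of each member (x axis, log2, ± SE, n = 2 arrays a group), in order of the difference. Filled squares were called (limma adjusted p under 0.1), 4 on each side, from Idi1 at -1.15 to Scap at 1.00.

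Double KD was set against each single KD. Against Tip60 KD a single member was called, Insig1, higher in double KD by 0.58 (SE 0.10, adjusted p = 0.0758), where 3.71% of all genes were called (1.15% higher and 2.56% lower). At an unadjusted p under 0.05 there were 10 members, and the share of all genes there was not counted. No member was called there without any one of the 8 arrays, and 14 were called with the slide as a block, against 26.2% of all genes. Against Hdac6 KD 8 members were called, 4 higher and 4 lower in double KD, against 10.1% of all genes (5.37% higher and 4.73% lower), or 15 with the slide as a block, against 29.4%. Higher in double KD were Abca1 (0.68), Scap (0.64), Insig1 (0.47) and Scd1 (0.39), and lower were Idi1 (-0.72), Acacb (-0.49), Fads1 (-0.45) and Ebp (-0.42). No member was called there without Hdac6 KD array A or B, and 1 without double KD array A or B. Idi1, Acacb, Ebp, Scap, Abca1 and Scd1 differed from Hdac6 KD in the same direction in Tip60 KD and in double KD. These contrasts share the Hdac6 KD arrays.

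The change in double KD was also set against the single changes added together (the interaction). It was called for 13 members, 9 positive and 4 negative, where 22.0% of all genes were called (11.1% positive, 10.9% negative). It was called for 27 with the slide as a block, against 47.1%. In 12 of the 13 the change in double KD lay nearer to zero than the sum of the single changes. The matching share among all genes with a called interaction was not counted, so 12 of 13 is not a trait of the members. Sc4mol was -0.75 in double KD where the single changes summed to -1.83, and Scd1 was -0.28 where they summed to -1.08. Insig1 was the exception, at 0.54 in double KD with a sum of 0.03. The control mean enters both the single and the double changes, so an error in it moves the sum and the difference in opposite directions. Fasn was at the floor in control KD, so its difference depends on the floor. Stard4 was at the floor on all arrays of Tip60 and double KD. Its difference (0.78) is therefore its Hdac6 KD change (-0.78) with the sign reversed. The floor fixed this, and with it the place of Stard4 among the 12. Leaving out 1 array at a time gave 4 to 8 calls, the fewest without control array A.

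**Figure D4:**
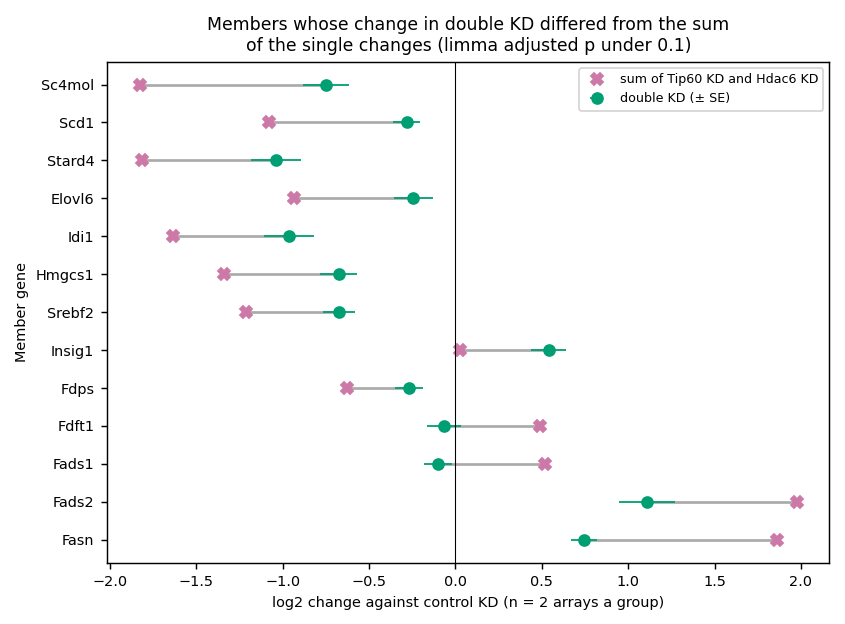
The 13 members whose change in double KD differed from the sum of the single changes (limma adjusted p under 0.1). Circles give the log2 change in double KD against control KD (± SE, n = 2 arrays a group) and crosses the sum of the changes in Tip60 KD and Hdac6 KD. In all but Insig1 the circle lies nearer to zero than the cross, which for Stard4 was fixed by the floor.

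Several probes were tested for 10 members, and no member had probes called in opposite directions in these KDs. With each probe on its own, 40.6%, 30.0% and 33.8% of all 22594 probes tested were called in Tip60, Hdac6 and double KD. Pmvk gave nearly equal changes on its probes in Tip60 KD (-0.47 and -0.44), as did Srebf2 (-0.65 and -0.65). In Hdac6 KD the other Pmvk probe was -0.24 and not called. In double KD the other Srebf2 probe was -0.29 and not called. Acly was called on both probes in every KD, the other probe giving 0.52, 1.00 and 1.20. The probes of Fads2 lie apart, at chr19:10137760-10137819 and chr19:10163229-10163288 (mm9). The first, which represents the gene here, gave 0.87, 1.11 and 1.11, and the second gave 0.10, 0.21 and 0.36, called in double KD alone. The second Acacb probe gave -0.06, -0.08 and -0.13 and was not called. It lay between the floor of -2.71 and -2.46 on every array, so a fall could hardly show on it. The fall of Acacb in Tip60 and double KD therefore rests on a single probe, which the second could not check. The other Tm7sf2 probe was called lower in all 3 (-0.70, -0.40 and -0.46), as the other Mvk probe was called higher in Tip60 KD (0.66). An Acaca probe at chr11:84211638-84211697 was called higher in Hdac6 KD (0.73) and double KD (0.45) but was -0.10 in Tip60 KD. The third tested Acaca probe was also called higher in Hdac6 KD (0.25), and was 0.002 in Tip60 KD and 0.03 in double KD, not called.

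**Figure D5:**
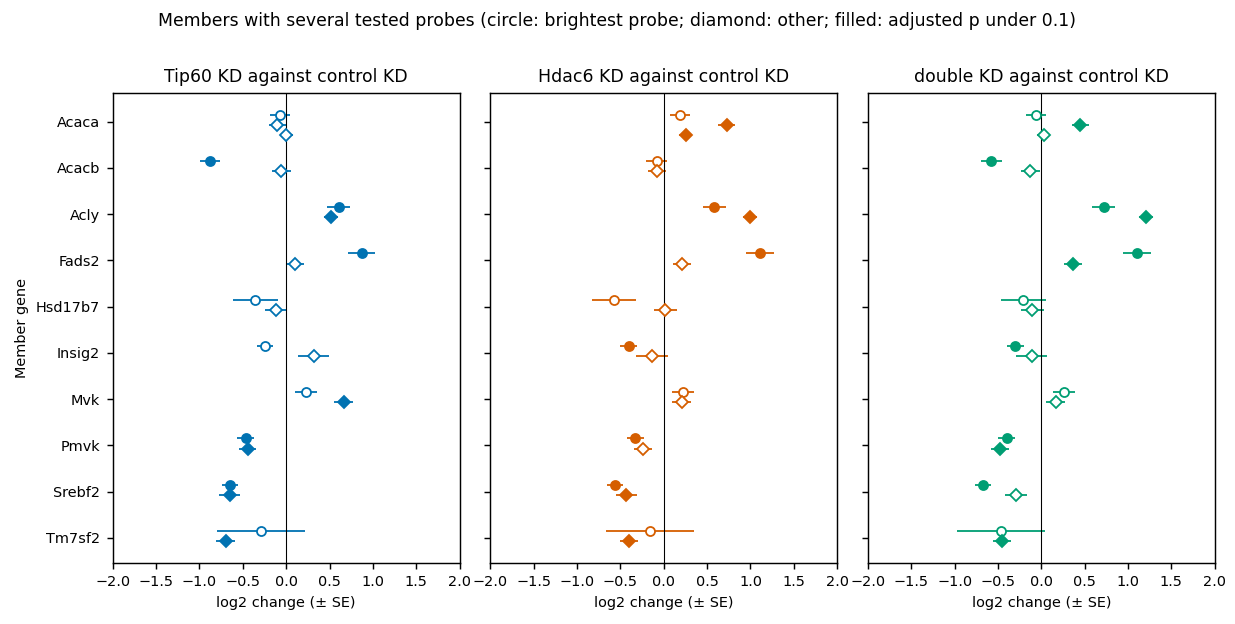
Log2 change against control KD (x axis, ± SE) of each tested probe of the 10 members with several, in Tip60, Hdac6 and double KD. Circles are the brightest probe of a gene, diamonds its other probes, and filled symbols were called. Acly and Pmvk probes lie close in Tip60 KD, while the probes of Fads2 differ by 0.76 and those of Acacb by 0.82. The second Acacb probe was near the floor on every array.

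Beside the members, 41 other genes of these pathways were listed for their roles, and 39 were tested. In Tip60 KD 5 were called higher and 13 lower, while Hdac6 KD had 3 higher and 12 lower and double KD 2 higher and 11 lower, with medians of -0.14, -0.21 and -0.07. That is 18, 15 and 13 of 39 called, beside 39.7%, 28.9% and 32.8% of all genes. The largest called changes described here were all lower. Soat1, which esterifies cholesterol for storage, changed by -1.58 (SE 0.15, adjusted p = 0.00138) in Tip60 KD and -1.13 (adjusted p = 0.00537) in double KD, beside -0.37 (adjusted p = 0.136) in Hdac6 KD. Acsl4, which activates polyunsaturated fatty acids, changed by -1.57 and -1.07 in Tip60 and double KD, beside -0.40 in Hdac6 KD, not called. Osbp, a sterol exchange protein, was called lower in all 3 (-0.97, -0.57 and -1.03). The mitochondrial synthase gene Oxsm (-0.43, -0.67 and -0.56) and the acetate-activating enzyme gene Acss2 (-0.58, -0.62 and -0.60) were also called lower in all 3.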

How the data were processed

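Agilent mouse arrays with 1 colour (Cy3) were used, on cRNA made from total RNA by amplification per the study's methods, and the labels' processing notes name Feature Extraction 10.7.1.1. Per the file headers, the deposited values are fluorescence intensity per spot, with a processed signal that is background-subtracted and not scaled between arrays. The series matrix, also deposited, is on a log2 scale, and its columns ranked probes as the median signals did. Probe positions are on mm9.

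The processed signal of each of the 8 arrays (43020 spots, none saturated, 21896 to 40609 well above background) was scaled to that array's 75th percentile. Values under a floor shared by all arrays (0.153, or -2.71 as log2) were set to it before the log2 step. On each array the dimmest spot well above background was found, and the brightest of these set the floor. Probes above background and floor on at least 2 arrays were kept, and the probe of highest mean represented a gene. Of the 280 member values 8 were at the floor. Bounds ("at least") were computed against this floor. Differences were tested with limma 3.58.1 in R 4.3.3, all 4 groups in one fit without a block (4 residual and 1.84 prior degrees of freedom), 2-sided, with Benjamini-Hochberg adjustment over 18116 genes. The number of arrays limits the precision. The fit was also run on simulated data with independent arrays, no slide effect and no floor, so it cannot show how these affect the calls. Letters A and B pair the arrays: they mark the slide in the file headers, and A minus B deviations correlated at 0.651 to 0.799 over all 6 pairs of groups. The blocked fit is an alternative, as are other background corrections, scalings, floors, filters and probe rules, and leaving out each array. The equal background replaced each array's subtracted background by one common value and was chosen after the data were seen.

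The members and lists were chosen with earlier results of these data known. Full values were given for the 12 members with the largest called change in any KD, and companion genes were named where they were among the 4 with the largest called change in a KD, apart from 1 that is not reported here. Current symbols came from RefSeq accessions. Promoters were RefSeq's (GRCm38.p6).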

Additional observations from a re-analysis of the deposited data

Results flagged for a closer look

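For 13 members the change in double KD differed from the sum of the single changes (limma, adjusted p under 0.1, n = 2 arrays a group). On the log2 scale, double KD minus the sum was 0.66 for Hmgcs1, 0.67 for Idi1, 0.36 for Fdps, -0.55 for Fdft1, 1.08 for Sc4mol, 0.51 for Insig1, 0.53 for Srebf2, -1.12 for Fasn, 0.80 for Scd1, 0.69 for Elovl6, -0.62 for Fads1, -0.87 for Fads2 and 0.78 for Stard4. Stard4 was at the floor on all arrays of Tip60 and double KD. Its value is therefore its Hdac6 KD change with the sign reversed, set by the floor and not a measured interaction. For Fasn both control arrays were at the floor. All groups had 2 arrays, too few to test for a single outlying array.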

How the results depend on the processing

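Of the 64 calls of members against control KD, 34 held under every alternative that gave a value at the same threshold. The adjusted p under 0.05, the 2-fold minimum and the fit with no B array of high background were not among these alternatives. These 34 include all calls of Abca1, Idi1, Sc4mol, Srebf2, Acacb, Scap, Ebp and Insig1. The calls of Fasn are also among the 34, but both of its control arrays were at the floor. Its probe passed the filter through the KD arrays alone, and leaving floor values missing gave no value for it. The alternatives are therefore a weak check on Fasn. The replicate block kept all 64 and added 18 of the 41 others. Shares of all genes were counted for the block and, in the 3 KDs, for each probe on its own. They were not counted for the other alternatives or for an unadjusted p, so those counts are not a trait of the members. A change of at least 2-fold left 4, 1 and 3 called members in Tip60, Hdac6 and double KD, 1 in Tip60 against Hdac6 KD, 0 in double against each single KD and 2 in the interaction. Leaving out an array gave 17 to 21, 10 to 18 and 14 to 22 members in Tip60, Hdac6 and double KD. Leaving out an array gave 4 to 8 in Tip60 against Hdac6 KD, 0 to 0 in double against Tip60 KD, 0 to 7 in double against Hdac6 KD and 4 to 8 in the interaction. Double KD had 15 with the series matrix and 13 with only the compared groups in the fit, and Tip60 against Hdac6 KD 17 with the block and 5 with only the compared groups.

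In double against Tip60 KD the count of 1 became 14 with the block, 5 with quantile normalization, 4 with the mean of a gene's probes, and 3 with no filter, with each probe on its own or with an equal background. It became 0 with normexp, the series matrix, the low floor, only the compared groups or an adjusted p under 0.05, where 5 to 10 members had an unadjusted p under 0.05. In double against Hdac6 KD the count of 8 became 15 with the block, 5 with normexp, 3 at an adjusted p under 0.05 and 0 with only the compared groups (9 at an unadjusted p under 0.05). In the interaction 13 became 27 with the block, 8 with normexp and 6 at an adjusted p under 0.05. Without the B arrays of control, Tip60 and Hdac6 KD, chosen after seeing the data, 1 residual degree of freedom was left and limma called 0 members in every comparison, with 13, 8 and 12 members at an unadjusted p under 0.05 in the 3 KDs, and all 64 calls kept their direction.

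The median change of the members in Tip60 KD (-0.05) became 0.037 with the mean of a gene's probes and 0.078 without those B arrays, and ranged from -0.11 to 0.063 with an array left out. In Hdac6 KD it was -0.16 with normexp, and from -0.12 to -0.01 with an array left out. In double KD it was -0.061 with normexp, -0.018 with the series matrix, -0.030 with quantile normalization, -0.067 with floor values left missing, -0.055 with an equal background, -0.13 without those B arrays, and from -0.13 to 0.011 with an array left out. Reversed in double KD were Fdps with the series matrix (0.023, adjusted p = 0.918) and Srebf1 with an equal background (-0.003, adjusted p = 1.0). The cause was not tested. Dim members such as Fasn, Stard4 and Srebf1 are limited by signal over background.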
